A study of Mus musculus with 96 samples.

Results

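The TRIM (tripartite motif) family of ubiquitin ligases was followed in bulk RNA sequencing of the nucleus accumbens (NAc) and prefrontal cortex (PFC) of mice. Its members were taken by name, as every protein-coding gene of the GENCODE M21 annotation (build GRCm38) whose symbol is Trim followed by a digit. Of 68 such genes, 50 had counts, out of 19918 genes in each table, and all 50 passed the filter on low counts in both regions. The other 18 were not analysed here, namely Trim15, Trim30c, Trim31, Trim34b, Trim38, Trim42, Trim43b, Trim43c, Trim50, Trim52, Trim54, Trim55, Trim60, Trim61, Trim63, Trim69, Trim75 and Trim80. The 50 members lie on 15 chromosomes, with 14 of them on chromosome 7.

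The animals were 48 mice of the FCG model, which gave 1 library per region each (96 libraries in 3 cohorts). In this model Sry, the testis-determining gene, is missing from the Y chromosome (written Y-) and is carried as a transgene by the genotypes whose names end in Sry, so that testes or ovaries occur with XX or XY chromosomes. The groups per region were XXSry Stress (testes, 6 mice), XXSry Control (6), XX Stress (ovaries, 6), XX Control (5), XY-Sry Stress (testes, 6), XY-Sry Control (6), XY- Stress (ovaries, 6) and XY- Control (7). Stress was subchronic variable stress, given as 3 restraint sessions of 1 hour on alternating days within 6 days, and Control mice were not stressed. Every XY mouse carried the same altered Y-, so XX minus XY compares XX mice with XY- mice and not with an ordinary Y. In the text XX chromosomes means the XXSry and XX genotypes together (23 mice) and XY chromosomes means XY-Sry and XY- (25 mice).

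TRIM proteins share an N-terminal module in which a RING finger, where present, passes ubiquitin from a conjugating enzyme to a target, followed by B-box and coiled-coil parts that pair the proteins. The C-terminal end differs among them and defines their classes, such as the PRY-SPRY domain of many antiviral members, the NHL repeats of Trim2, Trim3 and Trim32, and the PHD finger and bromodomain of the chromatin regulators Trim24, Trim28 and Trim33. In brain the family is known for neuronal members that act on axons, microtubules and synapses, and for interferon-inducible members that restrict viruses or tune the sensing of foreign nucleic acid.

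Total counts ran from 45.9 to 120.8 M per NAc library and from 67.6 to 104.4 M per PFC library, and no libraries of 1 group agreed within sampling noise. Libraries of 2 animals stood apart from their own group in several members, the NAc library of XY-Sry Control mouse 33 and the PFC library of XY- Stress mouse 32. The comparisons of chromosomes and gonads are also given without them. In bulk tissue fewer cells of a type and less RNA per cell cannot be told apart. The regions carried their own markers, with 8 of 8 markers of striatal projection neurons higher in the NAc and 6 of 6 markers of cortical excitatory neurons higher in the PFC.

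Of the 7 members that differed between XX and XY chromosomes, described further on, 5 lie together and hold a shared motif in their promoters, which are shown here first for that reason, with the promoter of Trim25 beside them. Trim34a, Trim5, Trim12a, Trim12c, Trim30b, Trim30a and Trim30d lie on chromosome 7 within 263.4 kb, from base 104244457 to base 104507849 (GRCm38), while Trim25 is on chromosome 11 and Trim10 on chromosome 17. The promoters run from 250 bases before to 50 bases after the RefSeq start (build GRCm38.p6) and are written 5′ to 3′ along the gene. Capitals mark a match to the core letters of the interferon-stimulated response element on either strand.
Trim34a, chr7:104244207-104244506, plus strand: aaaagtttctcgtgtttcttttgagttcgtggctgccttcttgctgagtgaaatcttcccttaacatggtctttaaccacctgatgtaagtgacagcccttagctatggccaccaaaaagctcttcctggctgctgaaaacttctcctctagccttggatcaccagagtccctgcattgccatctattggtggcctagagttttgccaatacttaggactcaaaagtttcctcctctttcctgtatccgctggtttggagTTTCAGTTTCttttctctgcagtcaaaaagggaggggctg
Trim12a, chr7:104315446-104315745, minus strand: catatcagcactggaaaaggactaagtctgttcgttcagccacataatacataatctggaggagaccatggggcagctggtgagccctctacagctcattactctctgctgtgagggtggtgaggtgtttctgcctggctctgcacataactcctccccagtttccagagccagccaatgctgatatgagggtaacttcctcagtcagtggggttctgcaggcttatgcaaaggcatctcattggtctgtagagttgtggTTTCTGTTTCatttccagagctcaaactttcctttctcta
Trim12c, chr7:104353300-104353599, minus strand: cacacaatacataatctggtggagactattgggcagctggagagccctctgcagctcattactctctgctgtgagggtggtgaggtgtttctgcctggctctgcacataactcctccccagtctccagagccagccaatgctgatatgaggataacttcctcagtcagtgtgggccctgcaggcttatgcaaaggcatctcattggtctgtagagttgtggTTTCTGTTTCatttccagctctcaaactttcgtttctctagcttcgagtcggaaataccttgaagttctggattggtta
Trim30a, chr7:104465144-104465443, minus strand: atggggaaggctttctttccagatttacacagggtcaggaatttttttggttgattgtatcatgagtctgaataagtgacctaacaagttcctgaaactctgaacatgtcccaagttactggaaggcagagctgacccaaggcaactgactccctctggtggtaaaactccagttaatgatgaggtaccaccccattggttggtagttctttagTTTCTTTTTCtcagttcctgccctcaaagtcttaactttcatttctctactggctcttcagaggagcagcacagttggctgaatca
Trim30d, chr7:104507800-104508099, minus strand: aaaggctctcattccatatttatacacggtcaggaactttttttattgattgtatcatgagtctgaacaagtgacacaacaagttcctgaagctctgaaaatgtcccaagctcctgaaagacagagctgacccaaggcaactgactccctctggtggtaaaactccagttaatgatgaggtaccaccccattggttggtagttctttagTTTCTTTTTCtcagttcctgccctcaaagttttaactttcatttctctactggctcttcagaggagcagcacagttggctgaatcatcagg
Trim25, chr11:88999153-88999452, plus strand: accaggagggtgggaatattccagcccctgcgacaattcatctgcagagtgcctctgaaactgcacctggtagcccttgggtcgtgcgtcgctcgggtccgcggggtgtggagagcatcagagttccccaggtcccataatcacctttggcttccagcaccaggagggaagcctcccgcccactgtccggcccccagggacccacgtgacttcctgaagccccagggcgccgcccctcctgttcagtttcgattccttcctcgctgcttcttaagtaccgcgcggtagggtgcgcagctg

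The Trim12a and Trim12c promoters carry the same letters at the match, TTTCTGTTTC, and the Trim30a and Trim30d promoters both carry TTTCTTTTTC, while the Trim25 promoter holds no match in this window. A second promoter of Trim30a listed by RefSeq holds a match as well. Searched on both strands, with overlapping matches allowed, the motif was in a promoter of 9 of the 39 members that have one in the table (23.1%), against 1079 of 27025 genes (3.99%). The 9 were Trim34a, Trim5, Trim12a, Trim12c, Trim30a, Trim30d, Trim21, Trim26 and Trim2. The first base of the match lay 41 bases before the start in Trim30d, 36 before it in Trim30a, 29 before it in Trim12c, and 10 after it in both Trim34a and Trim12a. The gamma-activated sequence, TTCNNNGAA, was in promoters of 2 members (5.13%), Trim46 and Trim45, against 9.55% of genes. The promoters of Trim12a and Trim12c are alike over long stretches, as are those of Trim30a and Trim30d, so their matches are not separate observations. A match is a description of letters and not of binding.

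Levels of the members, given as CPM, which sets each library to the same total, per kilobase of exon so that genes can be set side by side, spanned more than 3 orders of magnitude. In the NAc the highest was Trim44, a member without a RING finger, at 80.7 ± 5.13 CPM per kb (SD, n = 48), followed by Trim37 at 50.4 ± 4.63, a ligase with a MATH domain that is known for its role at peroxisomes and centrosomes. Trim32, an NHL repeat ligase known in muscle and neural precursors, had 44.7 ± 2.52 CPM per kb and Trim35 had 33.998 ± 1.81. The NAc order went on with Trim28 (22.8 ± 2.37), Trim46 (17.9 ± 2.99), Trim2 (17.3 ± 1.77), Trim23 (16.3 ± 1.73), Trim3 (14.6 ± 1.86) and Trim9 (13.6 ± 1.12). From Trim46 to Trim9 each neighbour in this order lay within 1 SD of the next, so neighbouring places there were not set apart by more than the spread.

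In the PFC the highest were again Trim44 at 81.7 ± 2.56 CPM per kb, Trim37 at 68.0 ± 3.20 and Trim32 at 52.9 ± 2.01. Next came Trim3 (29.2 ± 1.60), an NHL repeat ligase of synapses, Trim35 (25.5 ± 1.03), Trim2 (20.5 ± 1.04), which acts on neurofilament light chain, Trim28 (20.3 ± 0.939), the corepressor of KRAB zinc finger proteins, Trim9 (19.9 ± 0.815), a netrin-linked ligase of axon branching, Trim46 (17.5 ± 1.22), which bundles microtubules in the proximal axon, and Trim23 (16.2 ± 0.936). Trim2, Trim28 and Trim9 did not differ by more than their spread. At the low end stood Trim30b, at 0.0178 ± 0.0146 CPM per kb in the NAc and 0.0161 ± 0.0108 CPM per kb in the PFC. A mean of at least 1 CPM was reached by 39 members in the NAc and 40 in the PFC, and 4 and 3 members had a library at 0.

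**Figure D1:**
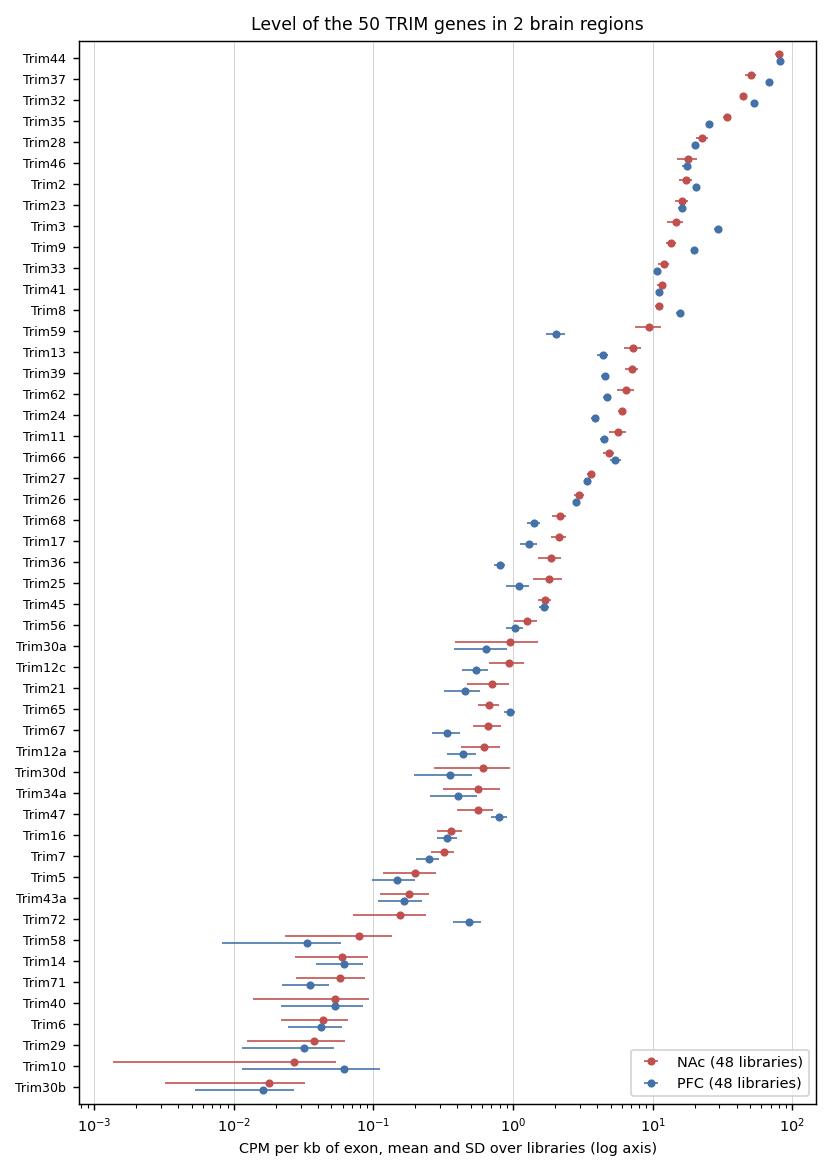
Level of each of the 50 members in the NAc and the PFC, in CPM per kilobase of exon on a log axis, as mean ± SD over 48 libraries. The lower bar of Trim10 in the NAc is cut off before 0. Trim44, Trim37 and Trim32 lead in both regions, and the cluster of chromosome 7 sits below 3 CPM per kb.

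The members also differed in how much they varied from mouse to mouse. Among members with a mean of at least 1 CPM, the coefficient of variation over the 48 libraries had a median of 12.99% in the NAc and 8.23% in the PFC. The steadiest in the NAc were Trim35 (5.34%), Trim32 (5.64%), Trim44 (6.35%), Trim27 (6.58%) and Trim8 (6.59%), and in the PFC Trim44 (3.13%), Trim32 (3.80%), Trim41 (3.99%), Trim33 (4.0%) and Trim35 (4.04%). At the other end were interferon-inducible members of chromosome 7, those of the cluster and Trim21, which lies outside it. In the NAc these were Trim30a (59.3%), Trim30d (56.0%), Trim34a (43.6%), Trim21 (33.4%) and Trim12a (30.7%). In the PFC they were Trim30d (45.0%), Trim30a (41.4%), Trim34a (36.9%) and Trim21 (28.8%), followed by Trim72 (22.8%), a membrane repair protein of muscle.

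The first comparison asked whether the members depend on sex chromosome complement. In each region 5 of 50 members were lower with XX than with XY chromosomes and 0 were higher. In the NAc, Trim34a, Trim30d, Trim30a, Trim25 and Trim12a were lower (edgeR, Benjamini-Hochberg adjusted p under 0.05), and in the PFC Trim25, Trim30d, Trim12c, Trim34a and Trim10 were lower. Trim25, Trim30d and Trim34a were called in both regions. Over all genes tested, 0.584% were called in the NAc (0.508% lower, 0.0762% higher) and 1.12% in the PFC (0.845% lower, 0.28% higher), so the members' share of 5 in 50 lay well above the background in both. Across all 50 members the median log2 fold change was -0.0026 in the NAc, against -2e-04 over all genes, and -0.0046 in the PFC, against 9e-04 over all genes.

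Trim34a, a relative of the retroviral restriction factor TRIM5 of primates, is at chr7:104244457-104262234. Its NAc level ran from 0.656 through a median of 1.07 to 1.60 CPM with XX chromosomes (1.09 ± 0.279, SD, n = 23), against 0.713, 1.47 and 3.45 CPM with XY chromosomes (1.79 ± 0.690, n = 25). The ranges overlapped at the low end, and 12 of 25 XY libraries, 3 XY-Sry and 9 XY-, were above every XX library. The log2 fold change was -0.70 (SE 0.130, adjusted p = 0.00144). In the PFC it ran over 0.444, 0.873 and 1.25 CPM with XX, against 0.686, 1.12 and 2.72 CPM with XY chromosomes, again with 12 XY libraries above all XX libraries. There the log2 fold change was -0.45 (SE 0.113, adjusted p = 0.0277).

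Trim30d (chr7:104470014-104507849) is a paralog of Trim30a, which is known to restrain Toll-like receptor signalling. In the NAc it had 0.904, 1.59 and 2.98 CPM as lowest, median and highest with XX (1.64 ± 0.473), against 1.35, 2.27 and 7.04 CPM with XY chromosomes (2.91 ± 1.49), and the ranges overlapped. Its log2 fold change was -0.76 (SE 0.162, adjusted p = 0.00799). In the PFC the values were 0.750, 1.02 and 1.34 CPM with XX, against 0.776, 1.42 and 4.60 CPM with XY chromosomes, with a log2 fold change of -0.53 (SE 0.109, adjusted p = 0.00413). There 15 of 25 XY libraries, 4 XY-Sry and 11 XY-, stood above every XX library, the most of any called member.

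Trim30a (chr7:104409025-104465193) had 2.00, 2.63 and 5.70 CPM in the NAc with XX, against 2.13, 3.86 and 11.7 CPM with XY chromosomes. Its means were 2.80 ± 0.718 and 4.90 ± 2.79 CPM for XX and XY, and the ranges overlapped over much of their length, since 7 XY libraries were above every XX library. The log2 fold change was -0.74 (SE 0.156, adjusted p = 0.00799) in the NAc. In the PFC it was -0.42 (SE 0.122, adjusted p = 0.0732), which missed the threshold, and without XY- Stress mouse 32 it was -0.35 (SE 0.0888, adjusted p = 0.0349), which passed it.

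Trim25 (chr11:88999376-89020293), the ligase known to activate the RNA sensor RIG-I (gene Ddx58), was the most abundant of the called members per kilobase. Its NAc level was 7.86, 9.27 and 11.6 CPM with XX (9.37 ± 1.02), against 7.51, 10.3 and 18.4 CPM with XY chromosomes (11.5 ± 3.01), with a log2 fold change of -0.29 (SE 0.0708, adjusted p = 0.0301). Its PFC level was 4.74, 5.83 and 6.64 CPM with XX (5.75 ± 0.530), against 4.64, 6.63 and 10.5 CPM with XY chromosomes (6.87 ± 1.42), also with a log2 fold change of -0.29 (SE 0.0561, adjusted p = 0.00169). XX libraries were the narrower group in both regions and lay inside the XY range, whose upper part held 11 NAc and 12 PFC libraries above all XX libraries.

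Trim12a (chr7:104299894-104315466) and Trim12c (chr7:104338754-104353362) are mouse relatives of primate TRIM5. Trim12a had 1.91, 3.05 and 3.84 CPM in the NAc with XX, against 2.26, 3.61 and 6.83 CPM with XY chromosomes (log2 fold change -0.40, SE 0.0967, adjusted p = 0.0303). In the PFC its log2 fold change was -0.27 (SE 0.0753, adjusted p = 0.0544). Trim12c had 1.504, 1.79 and 2.53 CPM in the PFC with XX, against 1.44, 2.25 and 3.70 CPM with XY chromosomes (log2 fold change -0.32, SE 0.0720, adjusted p = 0.0121). In the NAc its log2 fold change was -0.30 (SE 0.0935, adjusted p = 0.232). Both genes overlapped between the groups in each region.

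Trim10 (chr17:36869574-36877833), known in red cell development, was called in the PFC from few reads. It had 0, 0.0755 and 0.283 CPM with XX, against 0, 0.174 and 0.643 CPM with XY chromosomes, from 174 counts over 23 libraries and 371 counts over 25. The ranges overlapped almost wholly, with 2 XY libraries above all XX libraries and 1 library of each at 0. Its log2 fold change was -1.17 (SE 0.308, adjusted p = 0.0404) in the PFC and -0.45 (SE 0.442, adjusted p = 0.932) in the NAc.

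**Figure D2:**
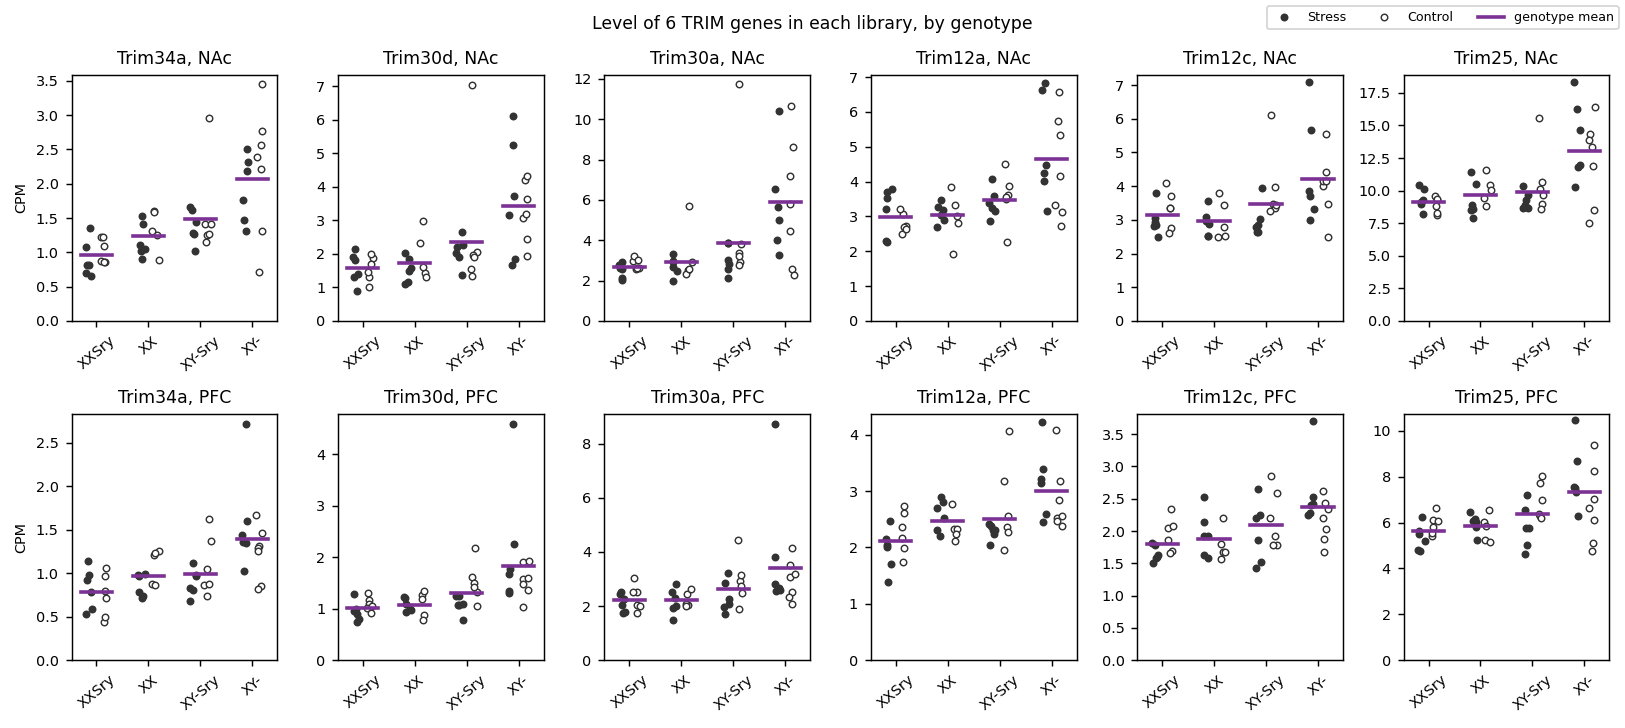
CPM of Trim34a, Trim30d, Trim30a, Trim12a, Trim12c and Trim25 in every NAc library (upper row) and PFC library (lower row), by genotype, with Stress mice filled and left of the open Control mice and a line at each genotype mean. XXSry and XX libraries lie close together, while XY-Sry and above all XY- libraries spread upward, as for NAc Trim34a, which ends at 1.60 CPM with XX and at 3.45 CPM with XY chromosomes.

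By genotype, XY- mice (ovaries) had the highest mean of all 4 genotypes for each of Trim25, Trim34a, Trim30a, Trim30d, Trim12a and Trim12c in both regions. NAc Trim25 averaged 9.11 ± 0.728 CPM in XXSry, 9.65 ± 1.24 in XX, 9.93 ± 1.92 in XY-Sry and 13.02 ± 3.13 in XY- mice. NAc Trim34a averaged 0.961 ± 0.224 CPM in XXSry, 1.24 ± 0.267 in XX, 1.48 ± 0.501 in XY-Sry and 2.07 ± 0.734 in XY- mice. Without mouse 33, XY-Sry mice averaged 9.41 ± 0.736 CPM of NAc Trim25, below XX mice, and 1.34 ± 0.190 CPM of NAc Trim34a (SD, n = 11). Without mouse 32, XY- mice averaged 7.06 ± 1.38 CPM of PFC Trim25, against 7.32 ± 1.62 CPM with it, and still had the highest mean for each of these members. The interaction of chromosomes with gonads was nevertheless called for 0 members in either region (edgeR; 0% of all genes in each). Its smallest p was that of Trim25 in the NAc (log2 difference 0.35, SE 0.141, adjusted p = 1) and of Trim30d in the PFC (0.45, SE 0.216, adjusted p = 0.994), and unadjusted p was under 0.05 for 4 members in the NAc and 2 in the PFC. Without mouse 33, NAc Trim25 was 0.40 (SE 0.132, adjusted p = 1), and without mouse 32, PFC Trim30d was 0.22 (SE 0.174, adjusted p = 0.999), with 5 NAc and 0 PFC members at unadjusted p under 0.05 and 0 called.

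Most of these calls fell among the chromosome 7 antiviral TRIM genes, of which 10 of 12 listed were measured. This list and the others were chosen with earlier results of these data known. Several genes of this list are in part near-copies, so its counts are descriptions and not separate observations. In the NAc 4 of 10 were lower with XX chromosomes and 9 of 10 had a log2 fold change below 0, with a median of -0.42, and in the PFC 3 of 10 were lower and 10 of 10 were below 0, with a median of -0.32. Trim21, a cytosolic receptor for antibody of the same chromosome, was -0.45 (adjusted p = 0.0763) in the NAc and -0.33 (adjusted p = 0.0670) in the PFC, and Trim5 was -0.33 (adjusted p = 0.836) and -0.19 (adjusted p = 0.660). Trim68, at 0.00 and -0.01, stood apart from the rest of the list. Of 11 measured members with roles in innate immune signalling, 1 was called in each region, Trim25, while Trim56, a ligase of DNA and RNA sensing, was -0.21 (adjusted p = 0.498) in the NAc and -0.18 (adjusted p = 0.0620) in the PFC. The NHL repeat class (Trim2, Trim3, Trim32, Trim71), the COS box class (Trim9, Trim67, Trim46, Trim36), the PHD and bromodomain class (Trim28, Trim24, Trim33, Trim66), the membrane-anchored Trim13 and Trim59, the ARF and MATH members Trim23 and Trim37, and the members without a RING finger had 0 calls in both regions.

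**Figure D3:**
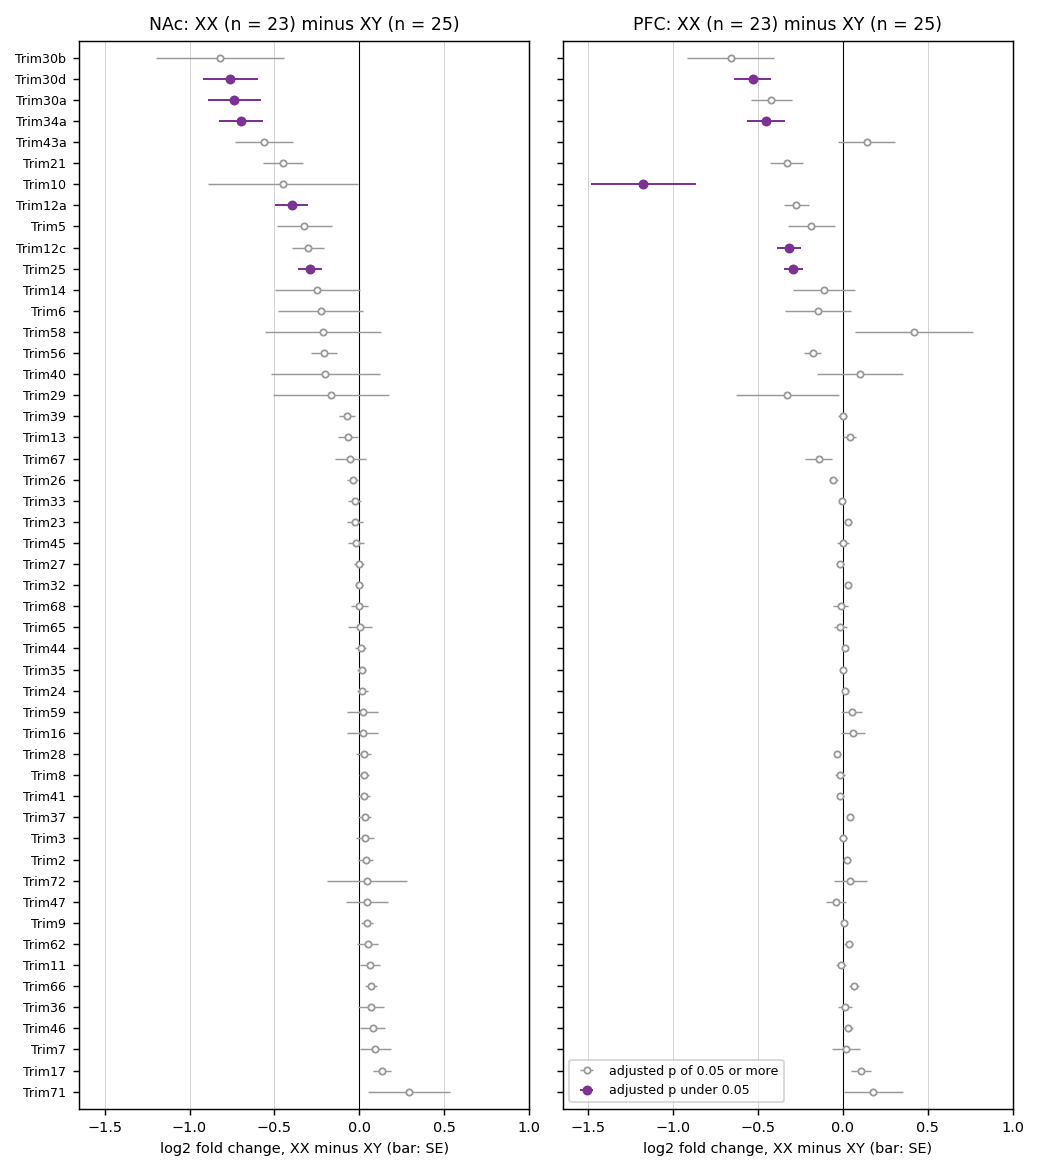
Log2 fold change of XX minus XY chromosomes for each of the 50 members in the NAc and the PFC, with bars of 1 SE. Members called at adjusted p under 0.05 all lie left of 0, and neuronal and chromatin members such as Trim2, Trim9 and Trim28 lie within 0.05 of it.

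Of the 7 members called in either region, 5 hold the response element motif in their promoter, and so do 4 of the 32 other members for which a promoter is listed (Trim2, Trim21, Trim26 and Trim5). The 5 all lie in the chromosome 7 cluster, as does Trim5. Some of their promoters are near-copies, so these counts are not of separate observations. Genes of the interferon response outside the family were lower as well. Of 20 listed, 17 were lower with XX chromosomes in the NAc (median log2 fold change -0.88) and 12 in the PFC (median -0.53), and 20 of 20 were below 0 in both. Ifit1, which binds viral RNA, changed by -1.67 (SE 0.281, adjusted p = 0.000363) in the NAc and -0.80 (SE 0.183, adjusted p = 0.0164) in the PFC, and Irf7, a factor that switches on interferon genes, by -1.31 (SE 0.273, adjusted p = 0.00719) and -0.87 (SE 0.168, adjusted p = 0.00261). The summed level of the 20 genes was 97.1, 107 and 172 CPM (lowest, median, highest) with XX, against 103, 144 and 410 CPM with XY chromosomes in the NAc, and 83.8, 95.0 and 107 CPM against 91.2, 112 and 332 CPM in the PFC. The part of this shift in the members' result was not tested.

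Markers of microglia, the macrophages of the brain, were called lower for 0 of 10 genes in the NAc and 1 of 10 in the PFC, with 8 of 10 below 0 in each. Their summed level was 336, 376 and 429 CPM with XX, against 306, 384 and 580 CPM with XY chromosomes in the NAc, and 338, 376 and 416 CPM against 332, 388 and 545 CPM in the PFC. No microglia marker was at 0 in any library. Blood markers had 0 of 5 called in each region and 5 of 5 below 0, with a summed median of 138 CPM for XX against 169 CPM for XY chromosomes in the PFC, where Trim10 was called. Markers of other cell types also moved in the PFC. Drd2 of striatal projection neurons was called lower (edgeR, -0.65, adjusted p = 0.00785), while Drd1 (0.04) and Tac1 (0.10) were above 0. The astrocyte marker Gja1 was called lower (edgeR, -0.10, adjusted p = 0.0425). Neither was called in the NAc. PFC meningeal markers, none called, were Col1a1 (-0.36), Slc22a6 (-0.29), Slc6a13 (-0.24), Col1a2 (-0.20), Igf2 (-0.17), Dcn (-0.14) and Lum (-0.06). The part of these cell types in the members' result was not tested.

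Residuals of log2 CPM over the 48 libraries, after group and cohort means were removed, showed which genes shared the pattern of the called members. In the NAc the genes most like Trim25 included Slfn8 (r = 0.89) and Parp14 (0.87), those most like Trim30a included Ddx58 (0.88) and Parp9 (0.88), and those most like Trim30d included Oasl2 (0.84) and Ddx58 (0.84). Trim34a was most like Ifit3 (0.82), Ifit1 (0.81) and Usp18 (0.80), and Trim12a most like Ifi47 (0.67), Parp12 (0.66) and Parp14 (0.66). In the PFC the closest to Trim25 were Rnf213 (0.82), Npc2 (0.82) and Tgfbr2 (0.76), to Trim30d Ifitm3 (0.80), Ifi27l2a (0.76) and Ifi204 (0.76), and to Trim34a Psmb8 (0.71), Ifitm3 (0.71) and B2m (0.65). Trim12c was closest to F11r (0.70), Ifitm3 (0.70) and Cybb (0.68), and Trim10 to Slc4a1 (0.60), Eci1 (0.56) and Cxcl12 (0.55). The correlation between pairs of the 5 called members had a median of 0.69 in the NAc and 0.50 in the PFC. Over all 1225 pairs of members the median was 0.002 and 0.0098. Pairs of called members ran from 0.41 to 0.83 in the NAc and from -0.29 to 0.63 in the PFC. All pairs ran from -0.83 to 0.92 and from -0.78 to 0.81, so high correlations were not particular to the called members. All points share the same libraries, among them the NAc library of mouse 33 and the PFC library of mouse 32. The correlations were not computed without these 2 libraries, which stood apart in several called members at once. Trim30a and Trim30d also share some exonic stretches. These correlations are descriptions.

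The XX and XY mice were spread unevenly over the cohorts, with 14 and 9 mice in cohort 1, 5 and 7 in cohort 2, and 4 and 9 in cohort 3. Within each cohort fitted alone, all 5 called members were below 0 in both regions. They were picked by the fit over the same libraries, so their shared sign is no independent check. Some values were smaller than their SE, as for PFC Trim12c in cohort 2 (-0.11, SE 0.150). In the NAc their log2 fold changes ran from -0.79 to -0.22 in cohort 1, from -0.79 to -0.40 in cohort 2 and from -1.08 to -0.58 in cohort 3. In the PFC they ran from -1.13 to -0.34 in cohort 1, from -0.60 to -0.11 in cohort 2 and from -1.6525 to -0.38 in cohort 3. Calls within a cohort were made in cohort 1 only, for Trim30a and Trim30d in the NAc and for Trim25, Trim30a, Trim30d and Trim56 in the PFC.

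Some calls rested on single libraries. Trim34a, Trim30d and Trim30a in the NAc and Trim25, Trim30d and Trim12c in the PFC stayed called when any 1 of the 48 libraries was left out. Without XY-Sry Control mouse 33, NAc Trim25 was -0.26 (adjusted p = 0.0567) and Trim12a -0.38 (adjusted p = 0.0564), so neither was called, while NAc Trim34a was -0.63 (adjusted p = 0.00248), Trim30d -0.62 (0.00898) and Trim30a -0.62 (0.00980). Without XY- Stress mouse 32, PFC Trim30d was -0.47 (adjusted p = 5.01e-04), Trim25 -0.27 (5.91e-04), Trim12c -0.29 (0.0102), Trim34a -0.41 (0.0281) and Trim10 -1.21 (0.0158). NAc Trim25 lost its call in 9 of 48 such fits (adjusted p up to 0.0727; XX Stress 9 and 25, XX Control 35, XXSry Control 34 and 39, XY-Sry Stress 30, XY-Sry Control 33, XY- Control 6 and 13) and NAc Trim12a in 11 (up to 0.0804; XXSry Stress 21, XXSry Control 34 and 39, XX Stress 9 and 25, XX Control 2, XY-Sry Stress 7 and 30, XY-Sry Control 33 and 38, XY- Control 13). PFC Trim34a lost it in 4 (up to 0.0840; XXSry Stress 21, XX Control 35, XY-Sry Stress 7, XY-Sry Control 38) and PFC Trim10 in 20 (up to 0.0946), among them the fit without XY- Control 13, where it was -1.05. With limma-voom in place of edgeR, Trim30a, Trim25 and Trim12a in the NAc (adjusted p = 0.0777, 0.102 and 0.0956) and Trim34a and Trim10 in the PFC (0.0501 and 0.0581) were not called. In the PFC the fit without the cohort term also lost Trim10 (-1.01, adjusted p = 0.0906) and added Trim30a and Trim12a, and under the stricter filter on low counts Trim10 was not tested.

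Parts of the cluster are near-copies of each other, so their counts are uncertain. Of all stretches of 50 exonic bases, 39.8% in Trim34a, 36.3% in Trim5, 33% in Trim12c, 10.4% in Trim12a, 7.49% in Trim30d and 5.98% in Trim30a occur in another gene as well. In Trim34a these are shared with Trim34b, and in Trim12c with Trim5 and Trim12a. Trim25 shares 0.191% and Trim10 shares 0. In 9 members exons overlap those of another measured gene (Trim7, Trim14, Trim16, Trim17, Trim35, Trim41, Trim46, Trim47 and Trim65), 6 of them on the opposite strand, and since strand use in the counting is not given in the sources used here, their counts are uncertain as well.

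Ligases of the family that go under other names were taken from a list of 4, of which 3 were measured. Mid1 (TRIM18), an X-linked ligase acting on microtubules and protein phosphatase 2A, was lower with XX chromosomes in the NAc, at 2.46, 5.47 and 7.39 CPM with XX, against 5.71, 8.36 and 13.5 CPM with XY chromosomes (log2 fold change -0.67, SE 0.0955, adjusted p = 9.41e-06). In the PFC it had 2.03, 3.94 and 5.36 CPM with XX, against 4.55, 6.07 and 8.19 CPM with XY chromosomes (-0.64, SE 0.0665, adjusted p = 1.01e-09). Its ranges overlapped in part, and reads of a gene on the opposite strand could not be told apart from its own. Every XY mouse carried the altered Y-, and the part of that chromosome in the Mid1 values was not tested. Its relative Mid2 (-0.03 in both) and Pml (0.01 and -0.09), the scaffold of PML nuclear bodies, were not called.

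Among partners of the family, 0 of 12 ubiquitin-conjugating enzymes and 0 of 10 genes of the Trim28 silencing complex were called for chromosomes in either region. Ube2d1 was -0.01 in the NAc and 0.01 in the PFC, and Setdb1, the histone methyltransferase recruited by Trim28, 0.02 and 0.00. Of 10 measured genes of RNA and DNA sensor signalling, 2 were lower in each region. Ddx58, the RIG-I gene, was -0.55 (SE 0.113, adjusted p = 0.00587) in the NAc and -0.32 (SE 0.0725, adjusted p = 0.0139) in the PFC, while its adaptor Mavs was -0.01 and -0.07 and was not called.

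The second comparison asked whether the members depend on the gonads. Testes minus ovaries gave 0 called members in either region with edgeR (over all genes 0.0102% in the NAc, all of it lower, and 0.0467% in the PFC, 0.0415% lower and 0.00518% higher). Unadjusted p was under 0.05 for 7 members in the NAc and 5 in the PFC, and DESeq2 and limma-voom also called 0. NAc Trim25 had 8.09, 9.26 and 15.6 CPM with testes (9.52 ± 1.48, n = 24), against 7.51, 10.99 and 18.4 CPM with ovaries (11.5 ± 2.95, n = 24), with overlapping ranges and a log2 difference of -0.26 (SE 0.0680, adjusted p = 0.219). Trim34a was -0.45 (adjusted p = 0.270) in the NAc and -0.42 (adjusted p = 0.292) in the PFC. The other members with the smallest p were Trim26 (-0.09), Trim30a (-0.42) and Trim12a (-0.23) in the NAc, and Trim12a (-0.26), Trim30d (-0.29), Trim25 (-0.15) and Trim33 (0.04) in the PFC, with adjusted p between 0.337 and 0.561. Without XY- Stress mouse 32, which has ovaries, the PFC values were -0.37 for Trim34a (adjusted p = 0.373), -0.23 for Trim12a, -0.22 for Trim30d, -0.12 for Trim25 and 0.04 for Trim33, and 0 members were called.

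One NAc library decided this count. Without XY-Sry Control mouse 33, which has testes and whose values of Trim25, Trim30a, Trim30d, Trim34a and Trim12c lay far above its group, NAc Trim25 was -0.29 (adjusted p = 0.0182) and Trim34a -0.51 (adjusted p = 0.0281), so 2 members were called lower with testes. Trim30a was then -0.53 (adjusted p = 0.0504). The library of mouse 33 was singled out from these same values, so the 2 calls are no independent result. Its NAc Trim25 (15.6 CPM) lay below that of XY- Stress mouse 41 (18.4 CPM). Its NAc Trim34a (2.96 CPM) lay below that of XY- Control mouse 13 (3.45 CPM). In the PFC mouse 33 was also high, at place 2 of all libraries for Trim30a (4.42 CPM) and Trim12c (2.86 CPM). Of the 20 interferon response genes 0 were called with all libraries, and 20 of 20 were below 0 in both regions, 20 in the NAc and 10 in the PFC with unadjusted p under 0.05. Their summed median was 111 CPM with testes, against 142 CPM with ovaries in the NAc, and 97.5 against 105 CPM in the PFC. Blood markers were below 0 for 5 of 5 genes in both regions with 0 called, with a median of -0.42 in the NAc and -0.39 in the PFC. Their summed level was 27.4, 57.6 and 93.7 CPM with testes, against 20.3, 78.5 and 133 CPM with ovaries in the NAc, and 49.2, 125 and 232 CPM against 40.9, 177 and 342 CPM in the PFC. Microglia markers were below 0 for 9 of 10 genes in the NAc and 10 of 10 in the PFC with 0 called, 5 and 6 of them at unadjusted p under 0.05. Their summed level was 328, 379 and 580 CPM with testes, against 306, 387 and 517 CPM with ovaries in the NAc, and 338, 367 and 416 CPM against 332, 388 and 545 CPM in the PFC. Meningeal markers were below 0 for 5 of 7 genes in the NAc and 7 of 7 in the PFC, with 0 called. The part of these shifts in the members' values was not tested.

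The third comparison asked whether stress changed the members. Stress minus Control gave 0 called members in each region with edgeR (0% of all genes in the NAc and 0% in the PFC), 0 members with unadjusted p under 0.05, and 0 with DESeq2 or limma-voom. In the NAc the smallest p was that of Trim59, at 21.9, 31.5 and 45.3 CPM in Stress mice (32.6 ± 6.99, n = 24), against 17.8, 31.2 and 43.8 CPM in Control mice (30.97 ± 6.41, n = 24), ranges that overlap almost wholly (log2 difference 0.16, SE 0.1001, adjusted p = 0.997). It was followed by Trim32 (-0.04), Trim68 (0.08), Trim58 (-0.55, under 1 CPM) and Trim39 (0.06). In the PFC the smallest p values belonged to Trim10 (-0.64, SE 0.328, adjusted p = 0.866), Trim72 (-0.21), Trim8 (-0.06), Trim66 (0.05) and Trim40 (-0.46), of which Trim10 and Trim40 are under 1 CPM. Trim8 had 46.9, 58.3 and 61.98 CPM in Stress mice, against 52.3, 59.7 and 67.1 CPM in Control mice, again overlapping.

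Stress within each genotype called 0 members in all 4 genotypes and both regions (edgeR; 0% of all genes in each). The smallest p in the NAc belonged to Trim58 in XXSry (-0.95), Trim30b in XX (1.47), Trim2 in XY-Sry (-0.17) and Trim56 in XY- mice (0.32), and in the PFC to Trim35 in XXSry (0.08), Trim24 in XX (0.12), Trim33 in XY-Sry (-0.09) and Trim25 in XY- mice (0.27, or 0.15 without mouse 32). Unadjusted p was under 0.05 in the NAc for 1 member each in XY-Sry and XY- mice and for 0 in XXSry and XX mice, and in the PFC for 4 in XXSry, 2 in XX, 5 in XY-Sry and 7 in XY- mice. The interactions of stress with chromosomes and with gonads also called 0 members (edgeR; 0% of all genes in each). For gonads by stress the smallest p was that of PFC Trim25 (-0.40, SE 0.1099, adjusted p = 0.538), whose mean was 5.35 ± 0.556 CPM in XXSry Stress, against 5.94 ± 0.444 in XXSry Control mice, and 7.97 ± 1.43 in XY- Stress, against 6.76 ± 1.66 in XY- Control mice. Without XY- Stress mouse 32 the XY- Stress mean was 7.48 ± 0.846 CPM (n = 5) and the difference -0.34 (SE 0.0978, adjusted p = 0.528). Unadjusted p was under 0.05 for 7 members in that PFC test and for 0 in the NAc, where Trim16 came first (-0.31). For chromosomes by stress it was under 0.05 for 0 members in both, with Trim28 (-0.15) first in the NAc and Trim21 first in the PFC (-0.34, or -0.20 without mouse 32). DESeq2 and limma-voom called 0 members in each of these tests and in the interaction of chromosomes with gonads.

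The fourth comparison set the NAc against the PFC of the same 48 mice, with the animal as a block. Of 50 members, 23 were higher and 18 lower in the NAc, and 9 were not called (Trim6, Trim14, Trim16, Trim28, Trim29, Trim30b, Trim33, Trim40 and Trim43a). This share of 41 in 50 is near the background, since 86.6% of all genes were called, 44.4% higher and 42.3% lower, so the count says nothing particular about the family. What follows describes which members go which way. The regions did not overlap for 9 of 50 members, Trim59, Trim36, Trim24 and Trim35 higher and Trim32, Trim37, Trim8, Trim9 and Trim3 lower in the NAc. This share too is near the background, since the regions did not overlap for 16.4% of all genes, 7.62% higher and 8.79% lower.

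Trim59, a ligase anchored in membranes (chr3:69035288-69044755, GRCm38), had the highest log2 fold change of the family. It had 16.9, 29.7 and 43.2 CPM in the NAc (30.2 ± 6.38, n = 48), against 5.22, 6.91 and 11.7 CPM in the PFC (7.15 ± 1.0998, n = 48), so that every NAc library was above every PFC library. The log2 fold change was 2.06 (SE 0.0493, adjusted p = 8.42e-36), or 4.18-fold, and 48 of 48 mice were higher in the NAc. Trim36, a microtubule-binding ligase, had 5.14, 8.81 and 11.8 CPM in the NAc, against 3.56, 4.12 and 5.08 CPM in the PFC, with no overlap (log2 fold change 1.05, SE 0.0432, adjusted p = 2.34e-27). Trim58 was 1.05, at a mean under 1 CPM. Next among members with a mean log2 CPM of at least 0 were Trim67 (0.83), the closest relative of Trim9, Trim12c (0.60) and Trim30d (0.58). After them came Trim25 (0.57), Trim13 (0.57), a ligase of the endoplasmic reticulum, and Trim17 (0.56). The 6 from Trim67 to Trim17 overlapped between regions, though Trim25, Trim13 and Trim17 were higher in the NAc of 48 of 48 mice.

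On the lower side, Trim3 had 51.3, 62.006 and 88.0 CPM in the NAc (63.5 ± 8.13), against 120, 140 and 156 CPM in the PFC (140 ± 8.11), lower in 48 of 48 mice and without overlap (log2 fold change -1.15, SE 0.0282, adjusted p = 1.63e-36). Trim9 had 154, 185 and 217 CPM in the NAc, against 267, 297 and 335 CPM in the PFC, also without overlap (-0.69, SE 0.0204). Trim8, a regulator of cytokine signalling, was -0.65 with no overlap, Trim37 was -0.58 with no overlap, and Trim2 was -0.39, lower in 48 of 48 mice. Trim47 (-0.68) and Trim65 (-0.65), a ligase of the RNA sensor MDA5, overlap each other in the genome, so reads of the 2 cannot be fully told apart. Trim10, at a mean under 1 CPM, was -1.335. Trim72 had the lowest value of all, -1.88 (SE 0.120, adjusted p = 1.22e-19), at a median of 0.297 CPM in the NAc against 1.16 CPM in the PFC, lower in 48 of 48 mice. Of 4 measured skeletal muscle markers, Myh4 (-3.45), Acta1 (-1.13) and Myl1 (-0.52) were lower in the NAc as well. Tnnt3 (1.94) was higher, though it did not pass the filter on low counts of the PFC fit. The summed level of the 4 markers ran from 1.95 to 4.70 CPM in the NAc, against 5.77 to 8.31 CPM in the PFC. Their part in the value of Trim72 was not tested.

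By class, 3 of 4 NHL repeat members were lower in the NAc (Trim2, Trim3, Trim32) and Trim71, at a mean under 1 CPM, was higher. Trim9 and Trim46 were lower and Trim67 and Trim36 higher among the 4 COS box members. Of the chromosome 7 antiviral TRIM genes, in and outside the cluster, 8 of 10 were higher and 0 lower, with a median of 0.32, against 0.0205 over all genes. Of the chromatin members Trim24 was higher (0.50) and Trim66 lower (-0.30), and Trim28 and Trim33 were not called. Of the partners, 8 of 10 genes of the Trim28 complex were higher and 9 of 12 conjugating enzymes lower in the NAc. Cell type markers also differed between the regions, where 44.4% of all genes were called higher and 42.3% lower. Of these markers, 6 of 6 of oligodendrocytes were higher (median 2.38), 7 of 7 meningeal and 5 of 5 blood markers lower, and 8 of 10 microglia markers lower. Their part in the members' values was not tested.

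**Figure D4:**
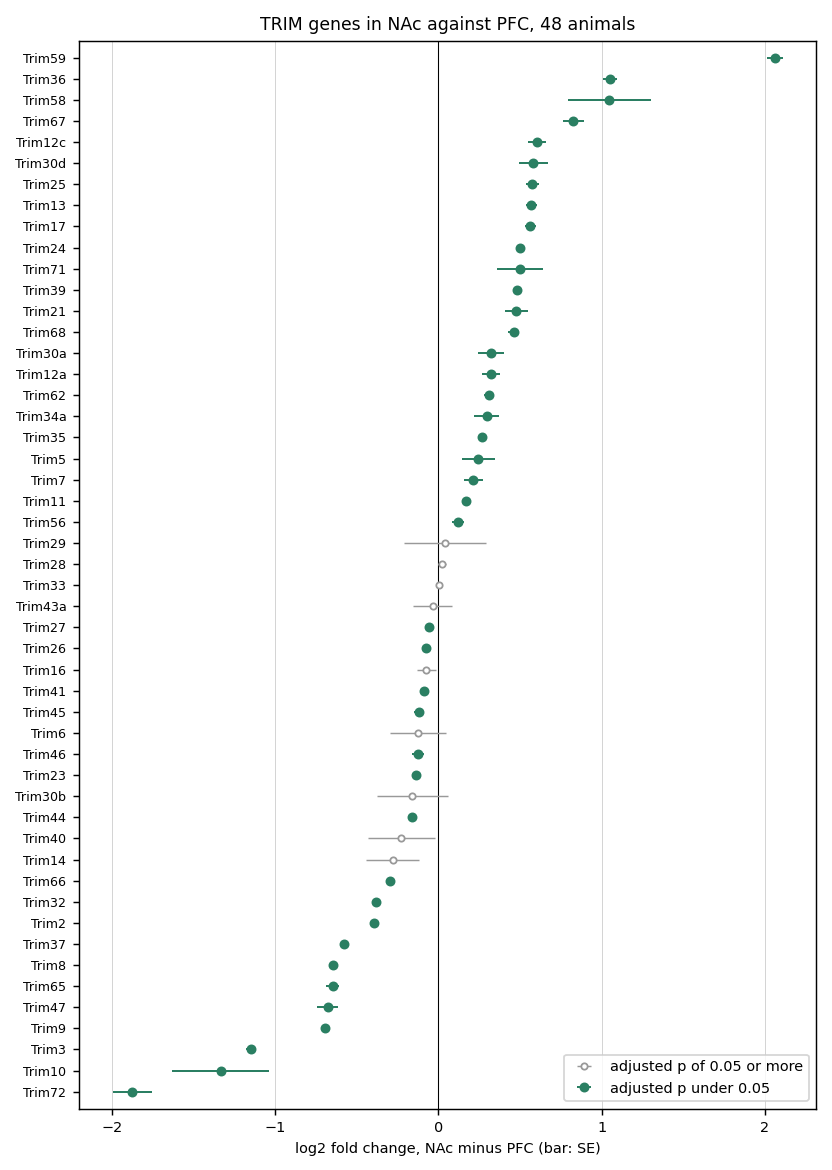
Log2 fold change of NAc minus PFC for each of the 50 members, with bars of 1 SE, from the fit over 96 libraries with the animal as a block. Trim59 at 2.06 and Trim36 at 1.05 lie at the higher end, and Trim72 at -1.88 and Trim3 at -1.15 are among the lowest.

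Whether the differences between groups themselves differ between regions was tested in 1 fit over both. For XX minus XY, 0 members were called (edgeR; 0.0151% of all genes), with unadjusted p under 0.05 for 1, Trim43a (NAc difference minus PFC difference -0.71, adjusted p = 0.942). Trim30a, called in the NAc and not in the PFC, differed by -0.27 (adjusted p = 0.942), so its effect is not shown to differ between regions. Stress minus Control and testes minus ovaries gave 0 called members as well (0% of all genes in each), with 0 and 1 members at unadjusted p under 0.05, and limma-voom called 0 in all 3.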

How the data were processed

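Per the labels, polyadenylated RNA of tissue punches was sequenced as paired reads. The submitters' processing notes name FastQC 0.11.9, Trimmomatic 0.38, HISAT2 2.2.0, edgeR, DESeq2 and build GRCm38 (mm10). How reads were counted, with which strand setting and annotation, is not given in the sources used here. Each region has 1 deposited table of unnormalized counts, with 0 per-sample columns unused. Symbols came from GENCODE M21, promoters from RefSeq.

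Counts were fitted with edgeR 4.0.16 (robust quasi-likelihood, TMM, filterByExpr) in R 4.3.3, with 8 group means plus cohort per region, leaving 19684 NAc and 19292 PFC genes. Contrasts weight groups equally. The region fit has the animal as a block, since animal numbers in the titles pair the libraries. An animal's NAc and PFC deviations correlated with a median r of 0.1108 over 14019 genes, above 0.1 in 28 of 48 animals, and 9 matched best with their own number. Called means Benjamini-Hochberg adjusted p under 0.05 over all genes. CPM uses TMM library sizes, jointly over 96 libraries for the region comparison. Each library of a region is a different animal, so p-values measure the spread between mice. Members and lists were chosen with earlier results of these data known. Full statistics are given for called members, or otherwise the 5 (1 for interactions and single genotypes) with the smallest p, and for regions the 8 highest and 8 lowest with mean log2 CPM of at least 0. The fit was checked on simulated counts, with the same spread for every gene, no cohort effect and changed genes of high counts. Low counts and libraries that stand apart were not covered by that check. Alternatives within each region were DESeq2 1.42.0, limma-voom (limma 3.58.1), other scaling and filters, no cohort term, single cohorts for the 3 main factors, and leaving out each library. For NAc minus PFC only the 5 XX Control mice were left out in turn, and single cohorts were not fitted. The comparison of differences between regions was added after the data were seen, with limma-voom as its only alternative. Of the genes whose pattern was most like a called member, 1 is not reported here.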

Additional observations from a re-analysis of the deposited data

Results flagged for a closer look

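The 7 members called for sex chromosomes were looked at for a library far from the rest of its group, over 112 groups of 5 to 7 libraries. Of these, 15 groups had such a library, where chance gives about 1 in 20, and 9 of the 15 came from 2 libraries. In the NAc, XY-Sry Control mouse 33 was the highest of its group for Trim25 (15.6 CPM), Trim30a (11.7 CPM), Trim30d (7.04 CPM), Trim12c (6.1 CPM) and Trim34a (2.96 CPM). In the PFC, XY- Stress mouse 32 was the highest of its group for Trim30a (8.74 CPM), Trim30d (4.6 CPM), Trim12c (3.7 CPM) and Trim34a (2.72 CPM).

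The other 6 were single genes. In the NAc, Trim30a reached 5.7 CPM in XX Control mouse 50, Trim12c 3.94 CPM in XY-Sry Stress mouse 8, and Trim10 0.208 CPM in XX Stress mouse 43. In the PFC, Trim10 reached 0.136 CPM in XX Stress mouse 17 and 0.643 CPM in XY- Control mouse 13, and Trim30d was lowest, at 0.776 CPM, in XY-Sry Stress mouse 23.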

How the results depend on the processing

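For XX minus XY chromosomes in the NAc, 5 members were called by edgeR, 2 by limma-voom, 2 within cohort 1 alone and 0 within cohorts 2 and 3. In the PFC 5 were called by edgeR, 9 by DESeq2 (adding Trim30a, Trim21, Trim56 and Trim12a), 3 by limma-voom and 0 within cohorts 2 and 3. Leaving out 1 library gave 3 to 6 calls in the NAc, with 3 without XX Stress 9 or 25, XXSry Control 34 or 39, XY-Sry Stress 30, XY-Sry Control 33 or XY- Control 13. It gave 3 to 8 in the PFC, with 3 without XX Control 35, XY-Sry Stress 7 or XY-Sry Control 38 and 8 without XY-Sry Stress 23. Testes minus ovaries gave 0 to 2 calls in the NAc, 2 without XY-Sry Control 33. The cause of these moves was not tested, though single cohorts hold fewer samples.

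Directions turned round in 4 cases, all in values that were not called. Trim25 for testes minus ovaries in the PFC was 0.0253 within cohort 2. Within cohort 3, stress in the NAc gave 0.0213 for Trim32, 0.50 for Trim58 and -0.13 for Trim39. Without the replicate block, NAc minus PFC called 41 members, as many as with it, and the block changed no call of a named member. Stress, the interactions and stress within a genotype had 0 members called under every alternative run. Of the named members' fold changes under all alternatives, 1831 kept direction and call, 76 kept direction but lost the call, 2 gained it and 4 turned round. At the depth reached, 10 PFC and 11 NAc members stayed under 1 CPM, which limits the precision of their values.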
